A study of Saccharomyces cerevisiae with 17 samples.

Results

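Budding yeast cells without EBS1 (ebs1Δ) were set against cells without UPF1 (upf1Δ) across all genes with enough reads, which left 6198 of the 6692 identifiers in the count table. The comparison rested on 3 ebs1Δ and 3 upf1Δ libraries of poly(A) RNA, 6 of the 17 libraries of the series. The ebs1Δ cells had the genotype ebs1delta::KlURA3 with the plasmid pRS415, and the upf1Δ cells had upf1delta::KlURA3 with the same plasmid. Wild type cells, given here to place the levels, carried pRS415 and no KlURA3 marker, and 2 libraries of the same sequencing batch were used. A further 3 libraries of that batch, from cells without NMD4 (nmd4Δ), entered the choice of genes tested, the scaling and the estimate of the spread. All strains derived from BY4741, a haploid MATa laboratory strain lacking URA3, LEU2 and MET17, and were grown in SD-LEU, synthetic medium without leucine. The replicates are labelled as biological, and no source used here says whether they came from separate clones of each deletion, so the p-values cover the spread among these libraries and may not cover that among clones. The marker was common to ebs1Δ and upf1Δ, so it could not separate those 2 groups, while any comparison of either with wild type also compared cells with and without it.

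Upf1 is an RNA helicase and the central factor of NMD (nonsense-mediated mRNA decay), which removes mRNAs on which translation ends too early. Such mRNAs include transcripts with an unspliced intron, an upstream reading frame, a start codon that ribosomes skip, or a programmed frameshift. Upf1 acts with Nmd2 and Upf3, and it also binds accessory proteins, among them Nmd4 and Ebs1. The question was which RNAs need Upf1 but little Ebs1 to stay at a low level, and which differ in the other direction.

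The labels held for the deleted genes. UPF1 is listed under its older name NAM7 (YMR080C, chromosome XIII, 426712 to 429627), and had 5451, 5622 and 4221 reads in ebs1Δ, 10, 5 and 59 reads in upf1Δ, and 4574 and 4535 reads in wild type. EBS1 (YDR206W, chromosome IV, 862054 to 864708) had 1, 0 and 0 reads in ebs1Δ, 5647, 6236 and 5674 reads in upf1Δ, and 3325 and 3746 reads in wild type. URA3 had 0 reads in all 8 libraries. The libraries held 19750807 to 26228153 counted reads in ebs1Δ, 22687775 to 25245522 in upf1Δ, and 27447060 and 26128693 in wild type. Levels are given below as CPM, read counts scaled to a common library size with TMM factors, and changes as log2 fold changes ± SE, ebs1Δ over upf1Δ, from edgeR's quasi-likelihood test, called at a Benjamini-Hochberg adjusted p under 0.05. Coordinates are on R64 (sacCer3).

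Several genes that were lower in ebs1Δ have an ATG shortly before their annotated start codon, and their start regions are shown beside those of 2 genes that were higher in ebs1Δ. The genes shown were picked as examples, and most lower genes have no ATG this close. One lay in the last 30 bases in 14.7% of 559 genes called at least 2-fold lower. The share was 13.7% of 1257 genes called lower by less and 3.73% of 1501 called higher. Each line gives the last 24 bases before the start codon and the first 6 coding bases, 5′ to 3′, from the RefSeq genome, with the annotated start codon and any ATG before it in capitals. Whether the mRNAs include all of these bases is not known here.
ABM1, chrX:628688-628717, plus strand: acacATGtctactagtttccacgtATGtct
STN1, chrIV:610417-610446, plus strand: ggcttttaataATGggttggagccATGgat
EST1, chrXII:609519-609548, minus strand: aaATGacacATGccaccatagataATGgat
THI22, chrXVI:778559-778588, plus strand: tttccaaagcagtATGcctttcctATGgtt
CWP1, chrXI:261108-261137, plus strand: ctacgaaagtctcaaaaaacaataATGaaa
RPI1, chrIX:137872-137901, minus strand: cattttattactgatatttataaaATGtac
The upstream ATG lies 20 bases before the start codon in ABM1, 13 in STN1 and 11 in THI22, each in another frame and with no stop codon in that frame before the start codon. In EST1 one lies 22 bases before the start codon in another frame, and one 15 bases before it in frame, where it is followed by a stop after 3 codons. In CWP1 and RPI1 no ATG lies in the window.

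Differences between ebs1Δ and upf1Δ were widespread, and the large ones were nearly all falls in ebs1Δ. Of 6198 genes tested, 2011 (32.4%) were called lower in ebs1Δ than in upf1Δ and 1519 (24.5%) higher, 57% in all. The 2 directions differed in size. Among the lower genes the median log2 change was -0.71 and 707 (11.4% of genes tested) were at least 2-fold lower, whereas among the higher genes the median was 0.27 and only 11 (0.177%) were at least 2-fold higher. The 3 ebs1Δ libraries lay below all 3 upf1Δ libraries for 2111 genes (34.1%) and above them for 1485 (24%). Scaled by total count alone, with no correction for composition, the calls were 2245 lower and 806 higher, so that the small rises below depend on the scaling. That scaling put the median of all genes at -0.09 for ebs1Δ over upf1Δ, 0.07 for ebs1Δ over wild type and 0.14 for upf1Δ over wild type, where TMM scaling put them at -0.01, -0.01 and -0.02.

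**Figure D1:**
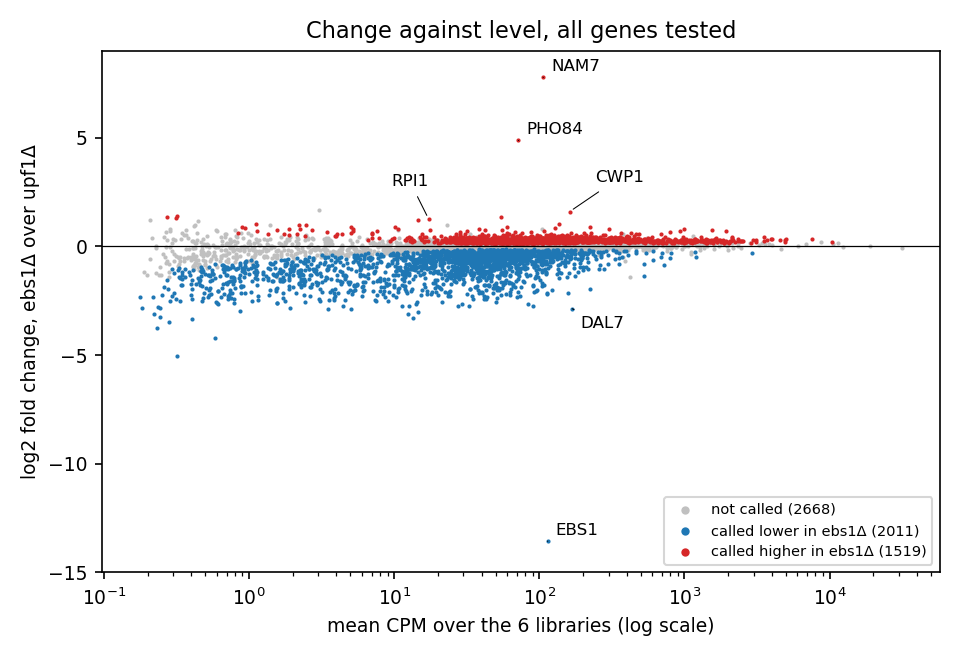
Log2 fold change of ebs1Δ over upf1Δ (vertical axis) against mean CPM over the 6 libraries (horizontal log axis) for the 6198 genes tested. Called falls, 2011 in number, reach far lower than the 1519 called rises reach up, and apart from the deleted genes and PHO84 most higher genes lie in a narrow band above 0.

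The share of genes called lower changed with the level of the RNA. With the genes divided into 4 equal classes by mean CPM, it was 49.8% in the lowest class, then 39%, 28.7% and 12.3% in the classes above, while the share called higher was 5.55%, 19.6%, 30.2% and 42.6% in the same order. Lists below are given with their share of lower and higher members, to be read against 32.4% lower and 24.5% higher over all genes tested; how far the level of a list's members sets its share was not tested.

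Among named genes averaging 10 CPM or more, the largest fall after that of EBS1 itself was in AAD15 (YOL165C, chromosome XV, 1647 to 2078), a gene of the aryl-alcohol dehydrogenase family, at -3.27 ± 0.195 (adjusted p = 5.42e-09). It had 2.82, 2.66 and 1.99 CPM in ebs1Δ, 23.5, 24.3 and 25.4 CPM in upf1Δ, and 0.424 and 0.708 CPM in wild type. The family has close relatives, and how reads matching several places were counted is not stated, so its count is uncertain. DAL7 (YIR031C, chromosome IX, 413015 to 414679), a malate synthase gene of allantoin use, had 39.8, 36.8 and 45.5 CPM in ebs1Δ, 291, 291 and 309 CPM in upf1Δ, and 26.3 and 26.6 CPM in wild type. The groups were far apart, and the change was -2.87 ± 0.0744 (adjusted p = 4.81e-12).

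IRC10 (YOL015W, chromosome XV, 297078 to 298838) had 8.63, 8.18 and 9.28 CPM in ebs1Δ, 55.3, 56.8 and 59.4 CPM in upf1Δ, and 5.28 and 5.74 CPM in wild type, a change of -2.72 ± 0.0739. ULI1 (YFR026C, chromosome VI, 205748 to 206257), named for its induction by protein misfolding stress, was lower by -2.75 ± 0.0924. ABM1, the first sequence above, had 2.75, 2.97 and 3.23 CPM in ebs1Δ, 20.03, 19.9 and 19.5 CPM in upf1Δ, and 2.43 and 1.89 CPM in wild type, a change of -2.74 ± 0.138. In ebs1Δ these 3 genes had reached under 10% of their upf1Δ rise, and IRC10 and ULI1 were still called higher than wild type. The maltose permease genes MAL31 (-2.76 ± 0.113) and MAL11 (-2.65 ± 0.107) and the seripauperin gene PAU7 (-2.55 ± 0.147) also belonged to the largest falls and belong to gene families, so their counts are uncertain. GTO3, a glutathione transferase gene, had 15.1, 9.12 and 8.83 CPM in ebs1Δ and 73.1, 35.3 and 69.6 CPM in upf1Δ, with the second upf1Δ library well below the other two (-2.42 ± 0.374, adjusted p = 0.000844). PIR3, which encodes a cell wall protein (YKL163W, chromosome XI, 144401 to 145378), had 16.4, 12.3 and 12.3 CPM in ebs1Δ, 75.1, 70.6 and 72.1 CPM in upf1Δ, and 14.7 and 13.2 CPM in wild type (-2.40 ± 0.116).

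**Figure D2:**
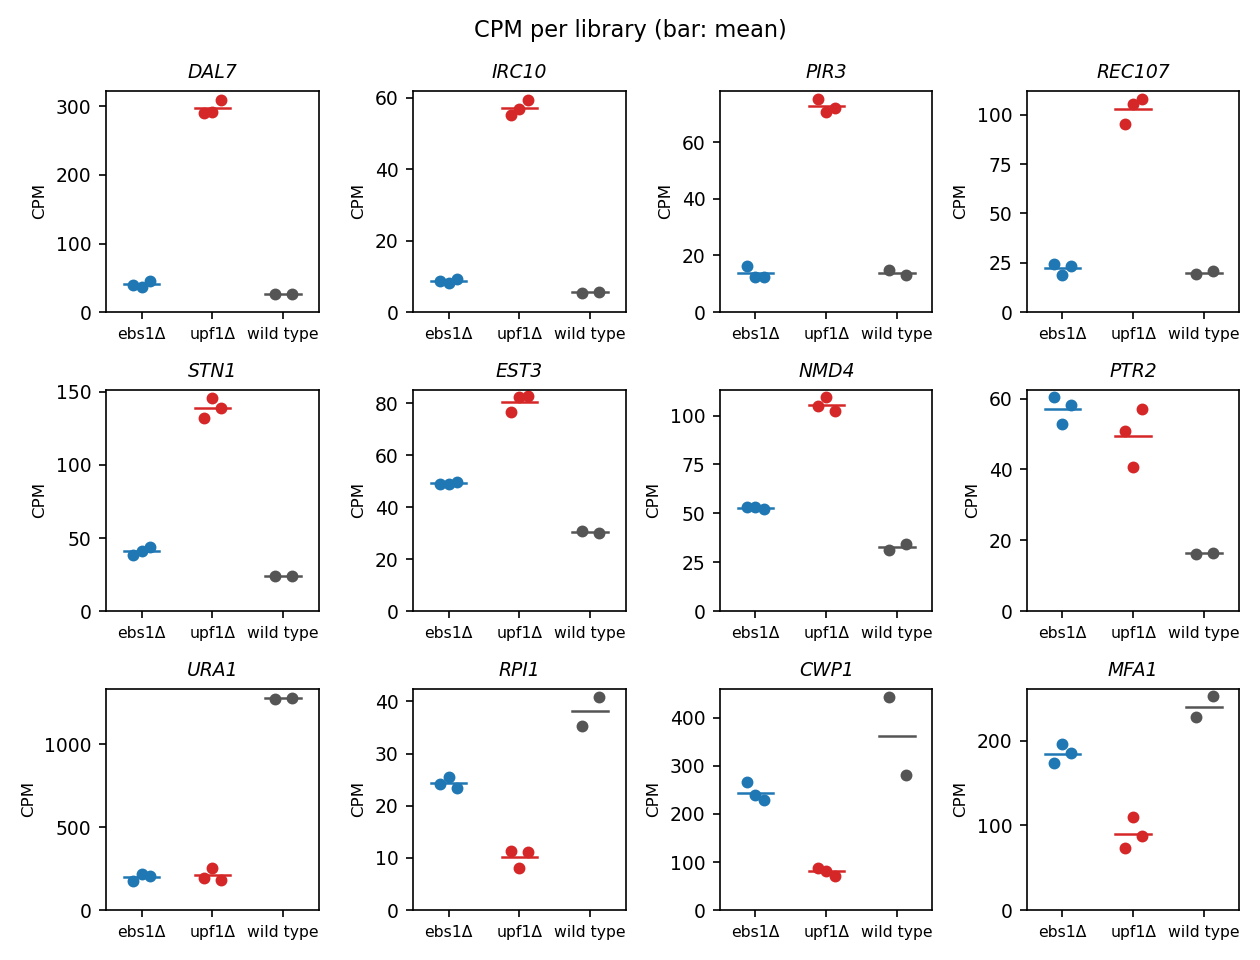
CPM of 12 genes in each library of ebs1Δ, upf1Δ and wild type (points, with the mean as a bar; each panel has its own axis from 0). DAL7, IRC10, PIR3, REC107 and STN1 are low in ebs1Δ and high in upf1Δ, PTR2 is high in both, URA1 is low in both, and RPI1, CWP1 and MFA1 are lowest in upf1Δ.

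Placed against wild type, the genes called lower in ebs1Δ fell into several patterns. These counts use the same libraries several times, so they describe the calls and support nothing further. For 963 genes that were called higher in upf1Δ than in wild type, the 95% interval of the ebs1Δ change against wild type lay within 0.5 of 0 on the log2 scale, and 101 of them were nonetheless called higher than wild type in ebs1Δ. For a further 388 the RNA was called higher than wild type in both deletions but more so in upf1Δ, with a median log2 change against wild type of 0.54 in ebs1Δ and 1.76 in upf1Δ. Another 502, with a median of 2.59 CPM, met neither rule, and 158 were not called higher in upf1Δ than in wild type. In all, 541 genes (8.73%) were called higher in ebs1Δ than in wild type and 158 (2.55%) lower, against 2101 (33.9%) and 1878 (30.3%) in upf1Δ. At 2-fold or more, 41 (0.662%) rose and 18 (0.29%) fell in ebs1Δ, against 962 (15.5%) and 46 (0.742%) in upf1Δ.

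Among genes near wild type in ebs1Δ, PIR3 was followed by URA10, an orotate phosphoribosyltransferase gene (YMR271C, chromosome XIII, 806865 to 807548), with 11.9, 10.9 and 12.4 CPM in ebs1Δ, 54.0, 54.8 and 60.9 CPM in upf1Δ, and 11.4 and 10.7 CPM in wild type (-2.27 ± 0.0833). REC107, a meiotic recombination gene (YJR021C, chromosome X, 468555 to 469579), had 24.2, 18.9 and 23.3 CPM in ebs1Δ, 95.4, 105 and 108 CPM in upf1Δ, and 19.3 and 20.8 CPM in wild type (-2.22 ± 0.0972). MET1, of sulfite reductase cofactor synthesis (YKR069W, chromosome XI, 571612 to 573393), averaged 40.5 ± 3.39 CPM in ebs1Δ and 185 ± 15.7 CPM in upf1Δ (SD, n = 3 each; -2.19 ± 0.0781), and AYT1, an acetyltransferase gene, 17.8 ± 1.86 and 77.5 ± 2.20 CPM in the same order (-2.12 ± 0.0727). For these 5 genes the ebs1Δ and upf1Δ libraries did not overlap, which the rule for naming them required.

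The distance of ebs1Δ from wild type was then expressed per gene as a percentage of the distance of upf1Δ from wild type, in CPM. This was done for the 520 genes with a mean of at least 10 CPM that were called at least 2-fold higher in upf1Δ than in wild type. Both distances share the wild type libraries and the genes were chosen on their upf1Δ level, so the percentages are a description without a test. Each distance also runs from cells lacking KlURA3 to cells carrying it, and how far the marker shapes the percentages was not tested. The median was 13.8%, the quartiles were 8.78% and 21.1%, and the range ran from -14.6% to 122.8%. For 12 genes ebs1Δ lay below the wild type mean, for 49 the percentage was under 5%, for 44 it was over 30% and for 6 over 50%. Of the 520, 4 were not called lower in ebs1Δ than in upf1Δ.

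**Figure D3:**
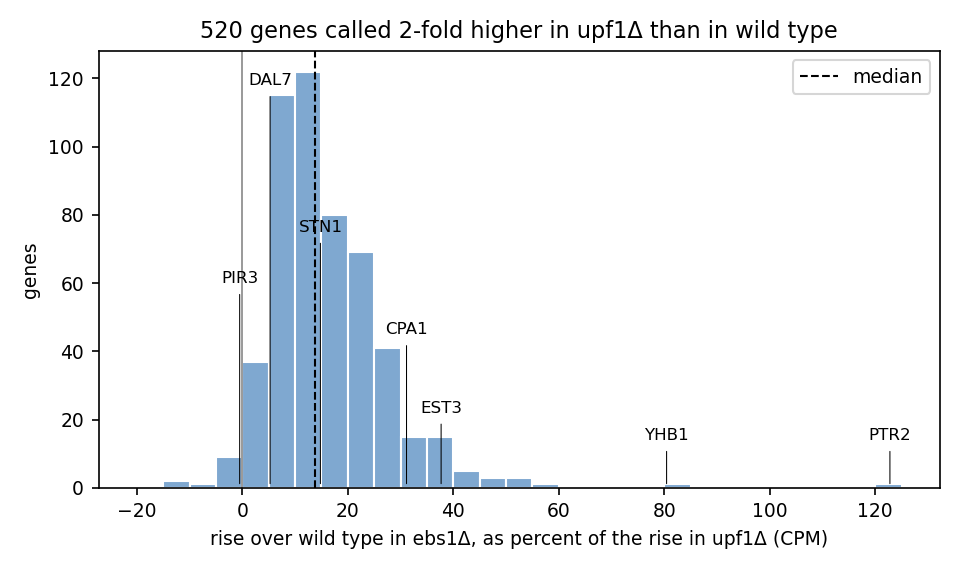
Number of genes (vertical axis) by the rise over wild type in ebs1Δ as a percentage of the rise in upf1Δ (horizontal axis), for 520 genes called at least 2-fold higher in upf1Δ. Most lie between 0 and 30%, with a median of 13.8%, and PTR2 at 122.8% and YHB1 at 80.5% stand far to the right. Both deletions carry KlURA3 and wild type does not.

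Those 4 exceptions and the genes at both ends of this range were chosen after their values were seen. PTR2, the di- and tripeptide transporter gene (YKR093W, chromosome XI, 615730 to 617535), had 60.3, 52.8 and 58.2 CPM in ebs1Δ, 51.0, 40.7 and 57.0 CPM in upf1Δ, and 16.2 and 16.6 CPM in wild type, and the 2 deletions overlapped (0.21 ± 0.0985, edgeR adjusted p = 0.0907). YHB1, the flavohaemoglobin gene (YGR234W, chromosome VII, 959904 to 961103), had 534, 515 and 460 CPM in ebs1Δ, 597, 597 and 520 CPM in upf1Δ, and 214 and 223 CPM in wild type (-0.19 ± 0.0900, edgeR adjusted p = 0.0927). PTR2 and YHB1 were called higher than wild type in both deletions, which share KlURA3. Whether the marker or the loss of each factor raised them was not tested. VMR1, a vacuolar transporter gene, was at -0.40 ± 0.214. GPX2, a peroxidase gene, was at -0.46 ± 0.420, with wild type libraries at 13.4 and 61.4 CPM that differed more than the deletions did. At the low end, ICL1, IDP2, MEP2, CUP2 and HEM4 lay at or slightly below wild type without Ebs1 and at least 2-fold above it without Upf1. CUP2, the copper-responsive activator gene, for example, had 25.4, 21.2 and 24.5 CPM in ebs1Δ, 56.4, 53.5 and 63.1 CPM in upf1Δ, and 24.1 and 23.8 CPM in wild type. Relatively high percentages were found for SOA1 (50.6%), a sulfonate transporter gene, MCO6 (53.1%), FKS3 (48.8%) and SGF11 (45.9%), a histone deubiquitination module gene, all still called lower in ebs1Δ than in upf1Δ.

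A list of 17 known yeast NMD substrates had 11 members (64.7%) that were lower in ebs1Δ than in upf1Δ and 1 (5.88%) that was higher, with a median log2 change of -0.71 against -0.01 over all genes tested. The telomere genes were prominent. STN1, of the telomere-capping complex (YDR082W, chromosome IV, 610441 to 611925), whose upstream ATG is shown above, had 38.5, 41.4 and 43.5 CPM in ebs1Δ, 132, 145 and 139 CPM in upf1Δ, and 24.3 and 24.02 CPM in wild type (-1.76 ± 0.0615, adjusted p = 2.89e-11). The 3 strains were fully separated, with ebs1Δ nearer to wild type. EST2, the telomerase catalytic subunit gene (YLR318W, chromosome XII, 766542 to 769196), had 27.3, 29.5 and 33.1 CPM in ebs1Δ, 86.6, 99.5 and 94.0 CPM in upf1Δ, and 21.7 and 20.1 CPM in wild type (-1.64 ± 0.0856). TEN1, of the same capping complex, was at -1.56 ± 0.0970 and EST1, a telomerase subunit gene with 2 upstream ATGs in its window, at -0.88 ± 0.0897.

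EST3, the telomerase gene read through a programmed frameshift (YIL009C-A, chromosome IX, 335666 to 336212), reached the largest share of its upf1Δ rise among the telomere genes. It had 49.0, 49.0 and 49.7 CPM in ebs1Δ, 76.5, 82.4 and 82.6 CPM in upf1Δ, and 30.6 and 29.96 CPM in wild type. The log2 change of EST3 over wild type was 0.70 in ebs1Δ and 1.41 in upf1Δ. In the same order TEN1 was at 0.76 and 2.32, EST2 at 0.52 and 2.16, and EST1 at 0.39 and 1.27. The rise of EST3 without Ebs1 was thus not the largest, but it was 37.7% of that without Upf1, where the other 4 telomere genes lay between 12.5% and 22.2%. CPA1, an arginine synthesis gene under control of an upstream reading frame (YOR303W, chromosome XV, 882899 to 884134), had 495, 558 and 467 CPM in ebs1Δ, 962, 909 and 921 CPM in upf1Δ, and 330 and 300 CPM in wild type (-0.88 ± 0.0892), or 31.1%. COX19, of cytochrome oxidase assembly, was at -1.54 ± 0.0816, the sulfite regulator gene FZF1 at -1.01 and the magnesium transporter gene ALR1 at -0.54 ± 0.0656. UBP7, a ubiquitin protease gene, was the member higher in ebs1Δ (0.33 ± 0.0655). Against wild type it was at 0.01 in ebs1Δ, without a call, and was called lower in upf1Δ (-0.32). PPR1 (-0.11 ± 0.0968), SPT10 (-0.11 ± 0.0843), CTR2 (-0.17 ± 0.0784), MAC1 (0.01 ± 0.0835) and OAZ1 (0.05 ± 0.108) were not called. Of these, PPR1 (0.41) and SPT10 (0.34) were called higher in upf1Δ than in wild type. CTR2 (0.07), MAC1 (0.04) and OAZ1 (0.22) were not called in upf1Δ against wild type.

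Of 18 mRNAs listed for an upstream reading frame, 5 (27.8%) were lower and 3 (16.7%) higher in ebs1Δ, with a median of -0.03. After CPA1, the lower members were WSC3 (-0.55 ± 0.0708), a cell wall sensor gene, CAD1 (-0.38), a stress regulator gene, INO2 (-0.37 ± 0.0637), an activator gene of phospholipid synthesis, and GCN4 (-0.28 ± 0.0736), the activator gene of amino acid synthesis. YAP1 (-0.04 ± 0.0641) and CLN3 (0.12 ± 0.112) were not called. HAP4, FOL1 and TIF4631 were the higher members, and none of the 3 kept its call without the second ebs1Δ library, without the third upf1Δ library or with total count scaling.

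Across all genes with an annotated start, an ATG lay within the 50 bases before the start codon (the letters ATG on the coding strand, in any frame) in 31.7% of 559 genes called at least 2-fold lower in ebs1Δ and in 30.3% of 1257 called lower by less. The share was 16.9% of 2456 genes not called, 7.66% of 1501 called higher and 18.8% of all 5773. The share was larger in lower than in higher genes in each of 4 equal classes of RNA level, as in the second class, with 34.9%, 34.4%, 17.4% and 12.8% in the order just given, and in the highest class, with 31.6%, 24.5%, 8.83% and 4.68%. The base 3 before the start codon was A in 53% of the 2-fold lower genes and in 57.8%, 61.1% and 66.5% of the others in the same order. In the lowest class of RNA level it was A in 52.5%, 57.5%, 55.9% and 58.5% in that order. The highest class had 63.2%, 61.9%, 68.3% and 73.4%, and how far level sets the share of A was not tested. These shares describe letters in the genome, and a match is not a translated reading frame.

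**Figure D4:**
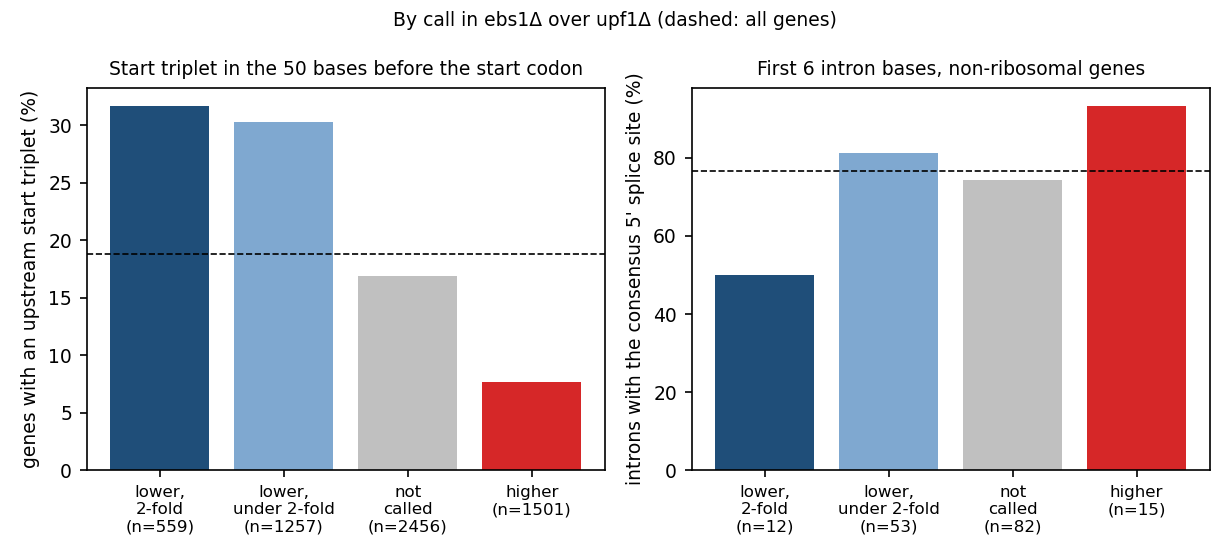
Left, percentage of genes with a start triplet in the 50 bases before the annotated start codon, by call in ebs1Δ over upf1Δ. Right, percentage of introns outside ribosomal protein genes, without near-identical copies, that begin with the consensus 6 bases, by the same calls. Bars are percentages and dashed lines give the share over all genes. The left share is 31.7% in the 2-fold lower genes and 7.66% in the higher genes, and the right one is lowest, at 50%, in the 2-fold lower genes, of which there are only 12.

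Some introns of genes that were at least 2-fold lower in ebs1Δ began with letters other than the common GTATGT, whereas 81.1% of the introns of genes lower by less began with it, against 73.5% of all introns counted outside ribosomal protein genes. The exon border of 6 genes with other letters is shown beside that of 4 with the common letters, with 6 exon bases, the first 6 intron bases in capitals and 8 further intron bases. These genes were chosen after their values were seen. Of 12 genes at least 2-fold lower without near-identical copies, 6 had the common letters, and of those only IWR1 is shown.
REC107, chrX:469250-469269, minus strand: cgaacgGTTCGTaccaacac
HFM1, chrVII:31565-31584, minus strand: caaataGTAGTAacgaagct
MEI4, chrV:239698-239717, minus strand: ataatcGTACGTgaaattgt
SPO1, chrXIV:609785-609804, plus strand: gccaaaGTAAGTtaaactct
UBC12, chrXII:744148-744167, plus strand: aaaatgGTACGTagatgcaa
OSW2, chrXII:250934-250953, minus strand: taatagGTATGGcaaagaag
IWR1, chrIV:255031-255050, minus strand: cattatGTATGTgttgttat
ACT1, chrVI:54673-54692, minus strand: attctgGTATGTtctagcgc
GLC7, chrV:432666-432685, plus strand: attaaaGTATGTtaatgttg
RIM1, chrIII:173185-173204, minus strand: aaaaggGTATGTtatttatt
The first 7 genes, IWR1 included, were lower in ebs1Δ by 2-fold or more, and ACT1 (actin, 0.15 ± 0.0589), GLC7 (a protein phosphatase, 0.21 ± 0.0596) and RIM1 (a mitochondrial DNA-binding protein, 0.16 ± 0.0629) were called slightly higher. The calls of ACT1 (edgeR adjusted p = 0.0452) and RIM1 (edgeR adjusted p = 0.0384) lay near the threshold, and the ebs1Δ and upf1Δ libraries overlapped for ACT1.

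Outside ribosomal protein genes, 73 of 172 genes with an intron (42.4%) were lower in ebs1Δ and 16 (9.3%) higher. GTATGT began the intron, read on the coding strand, in 35% of the 20 that were at least 2-fold lower, 81.1% of 53 lower by less, 74.4% of 82 not called and 93.3% of 15 called higher, against 73.5% of all 170 with a usable border. The 20 include 8 genes with near-identical copies, and without these the share was 6 of 12, or 50%. IWR1, an RNA polymerase assembly gene (YDL115C, chromosome IV, 253995 to 255126), had 50.7, 46.7 and 51.5 CPM in ebs1Δ, 150, 164 and 167 CPM in upf1Δ, and 40.9 and 42.5 CPM in wild type (-1.69 ± 0.0614). UBC12, a ubiquitin-like conjugation gene, had 18.6, 17.2 and 16.7 CPM in ebs1Δ, 42.9, 42.6 and 44.2 CPM in upf1Δ, and 16.3 and 15.5 CPM in wild type (-1.30 ± 0.0669).

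Meiotic genes, silent or low in growing haploid cells, were lower in ebs1Δ. Of 12 tested meiotic genes with an intron, 9 (75%) were lower and 0 higher, with a median of -0.83. No member was higher at an unadjusted p under 0.05 or by DESeq2. HFM1, a meiotic helicase gene (YGL251C, chromosome VII, 27921 to 31636), had 33.2, 32.2 and 33.0 CPM in ebs1Δ, 75.1, 85.2 and 81.8 CPM in upf1Δ, and 22.9 and 21.1 CPM in wild type (-1.30 ± 0.0619). SPO1, a sporulation phospholipase gene, had 9.76, 8.96 and 8.88 CPM in ebs1Δ, 22.7, 23.0 and 21.2 CPM in upf1Δ, and 5.40 and 6.05 CPM in wild type (-1.28 ± 0.0886). Both lay between wild type and upf1Δ, at 18.5% and 21.0% of the upf1Δ rise, unlike REC107 at 2.49%. AMA1, DMC1 and HOP2 were not called, each with a mean of at most 3.65 CPM.

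Of 12 early meiotic genes without an intron, 10 (83.3%) were lower, all by 2-fold or more, with a median of -1.55. IME2, the meiotic protein kinase gene (YJL106W, chromosome X, 221390 to 223327), had 14.8, 13.3 and 15.1 CPM in ebs1Δ, 68.8, 75.5 and 75.03 CPM in upf1Δ, and 9.60 and 9.63 CPM in wild type (-2.35 ± 0.0760). REC8, of meiotic cohesin (YPR007C, chromosome XVI, 569336 to 571378), was at -2.10 ± 0.0979 and ZIP1, of the synaptonemal complex, at -1.78 ± 0.0798. IME1 (-0.07), the activator gene of meiosis, and SPO11 (-0.14) were not called.

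Of 28 tested genes for poor nitrogen sources, 15 (53.6%) were lower and 2 (7.14%) higher in ebs1Δ than in upf1Δ, with a median of -0.45. In ebs1Δ 6 of the 28 were called higher than wild type, DAL5 and DAL7 among them, against 541 of 6198 (8.73%) over all genes tested. That comparison also sets cells with KlURA3 against cells without it. DAL5, the allantoate permease gene (YJR152W, chromosome X, 719666 to 721297), had 22.9, 21.5 and 25.8 CPM in ebs1Δ, 109, 119 and 126 CPM in upf1Δ, and 16.6 and 16.2 CPM in wild type (-2.34 ± 0.0737). MEP2, the ammonium transporter gene (YNL142W, chromosome XIV, 357453 to 358952), had 36.8, 38.1 and 37.4 CPM in ebs1Δ, 108, 104 and 106 CPM in upf1Δ, and 41.2 and 41.8 CPM in wild type (-1.50 ± 0.0525). All 3 ebs1Δ libraries lay below both wild type libraries, but MEP2 was not called in ebs1Δ against wild type (-0.15, edgeR adjusted p = 0.129). The urea transporter gene DUR3 (-1.78 ± 0.0668) and the glutamate dehydrogenase gene GDH2 (-1.35) were also lower. The regulator genes GLN3 (0.03) and DAL81 (0.10) were not called, and URE2 (0.17) and GZF3 (0.25) were the higher ones, a pair that lost both calls without the third ebs1Δ library, without the first or the third upf1Δ library or with total count scaling.

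Of 23 thiamine and pyridoxine genes, 18 (78.3%) were lower and 4 (17.4%) higher, with a median of -1.05. PET18, a gene adjoining the thiamine salvage family (YCR020C, chromosome III, 154012 to 154659), had 16.2, 14.04 and 19.1 CPM in ebs1Δ, 82.0, 88.4 and 88.2 CPM in upf1Δ, and 10.9 and 10.1 CPM in wild type (-2.40 ± 0.0881). THI21 (-2.11 ± 0.0770), of pyrimidine moiety phosphorylation, and its relative THI22 (-1.95 ± 0.0665), whose start region is shown above, followed, at 23.6 ± 1.81 and 102 ± 6.74 CPM and at 26.3 ± 2.01 and 102 ± 3.97 CPM in ebs1Δ and upf1Δ. The 4 higher members were THI2 (0.29) and PDC2 (0.32), activator genes, THI80 (0.43), of thiamine pyrophosphate synthesis, and PHO3 (0.56), a thiamine-repressible phosphatase gene. Reads of THI5, THI11, THI12 and THI13, and of SNZ2 and SNZ3, are shared among near-identical copies.

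Other metabolic lists were mixed, with a few strong falls each. In the sulfur list, 5 of 22 (22.7%) were lower, all of sulfate assimilation, with MET10 at 140 ± 1.45 CPM in ebs1Δ and 292 ± 12.9 CPM in upf1Δ (-1.06 ± 0.0664), and 5 (22.7%) higher, among them MET6 (0.68), the methionine synthase gene. In the amino acid list, 5 of 33 (15.2%) were lower, led by SER3 (-1.24 ± 0.0737), ARG8 (-0.70 ± 0.0839) and HIS5 (-0.62 ± 0.0554), and 11 (33.3%) higher by at most 0.41. In the pyrimidine list URA10 and URA6 (-0.79 ± 0.0636), a UMP kinase gene, were lower (14.3%) and 4 of 14 (28.6%) higher, led by the uracil permease gene FUR4 (0.53 ± 0.126). In the riboflavin list 4 of 9 (44.4%) were lower, with FMN1, the riboflavin kinase gene, at 57.6 ± 0.965 CPM in ebs1Δ and 136 ± 3.39 CPM in upf1Δ (-1.24 ± 0.0529). Several of these counts rested on single libraries. The higher count was 7 without the second ebs1Δ library and 6 without the third, or without the third upf1Δ library, in the amino acid list, and 2 without the second ebs1Δ or the third upf1Δ library in the pyrimidine list. The lower count in the riboflavin list was 2 without either of those.

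The glucose-repressed genes of the malate, glyoxylate and gluconeogenesis list had 8 of 18 (44.4%) lower and 1 (5.56%) higher. ICL1, the isocitrate lyase gene (YER065C, chromosome V, 285241 to 286914), had 21.8, 25.5 and 22.8 CPM in ebs1Δ, 51.3, 56.6 and 56.9 CPM in upf1Δ, and 30.2 and 24.6 CPM in wild type (-1.23 ± 0.0858). PCK1, of gluconeogenesis, had 13.8, 18.3 and 12.9 CPM in ebs1Δ, 38.3, 35.1 and 36.4 CPM in upf1Δ, and 16.1 and 13.8 CPM in wild type (-1.28 ± 0.110), and IDP2, an isocitrate dehydrogenase gene, was at -1.49 ± 0.0733. None of the 3 was called different from wild type in ebs1Δ. The higher member was ADR1 (0.36), which lost its call without the first ebs1Δ library and without the second or the third upf1Δ library.

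Stress genes went both ways. Of 33, 13 (39.4%) were lower and 4 (12.1%) higher, with a median of -0.30. The heat shock chaperone genes SSA3 (YBL075C, chromosome II, 84499 to 86448), at 53.3, 46.8 and 56.3 CPM in ebs1Δ, 137, 152 and 162 CPM in upf1Δ, and 42.9 and 45.6 CPM in wild type (-1.53 ± 0.0783), and SSA4 (-1.06 ± 0.0919) were lower, as was the aldehyde dehydrogenase gene ALD3 (-1.34 ± 0.0863). HSP12, a membrane stress protein gene, was higher, with 72.4, 90.4 and 71.9 CPM in ebs1Δ, 34.7, 47.8 and 43.8 CPM in upf1Δ, and 269 and 228 CPM in wild type, so that both deletions lay far below wild type (0.89 ± 0.157). GLC3, TFS1, SPI1 and PHD1 were lower in ebs1Δ than in upf1Δ without being called higher in upf1Δ than in wild type. PHD1 (-0.85 ± 0.234, adjusted p = 0.0137) lost its call without the second ebs1Δ library (edgeR adjusted p = 0.0502).

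**Figure D5:**
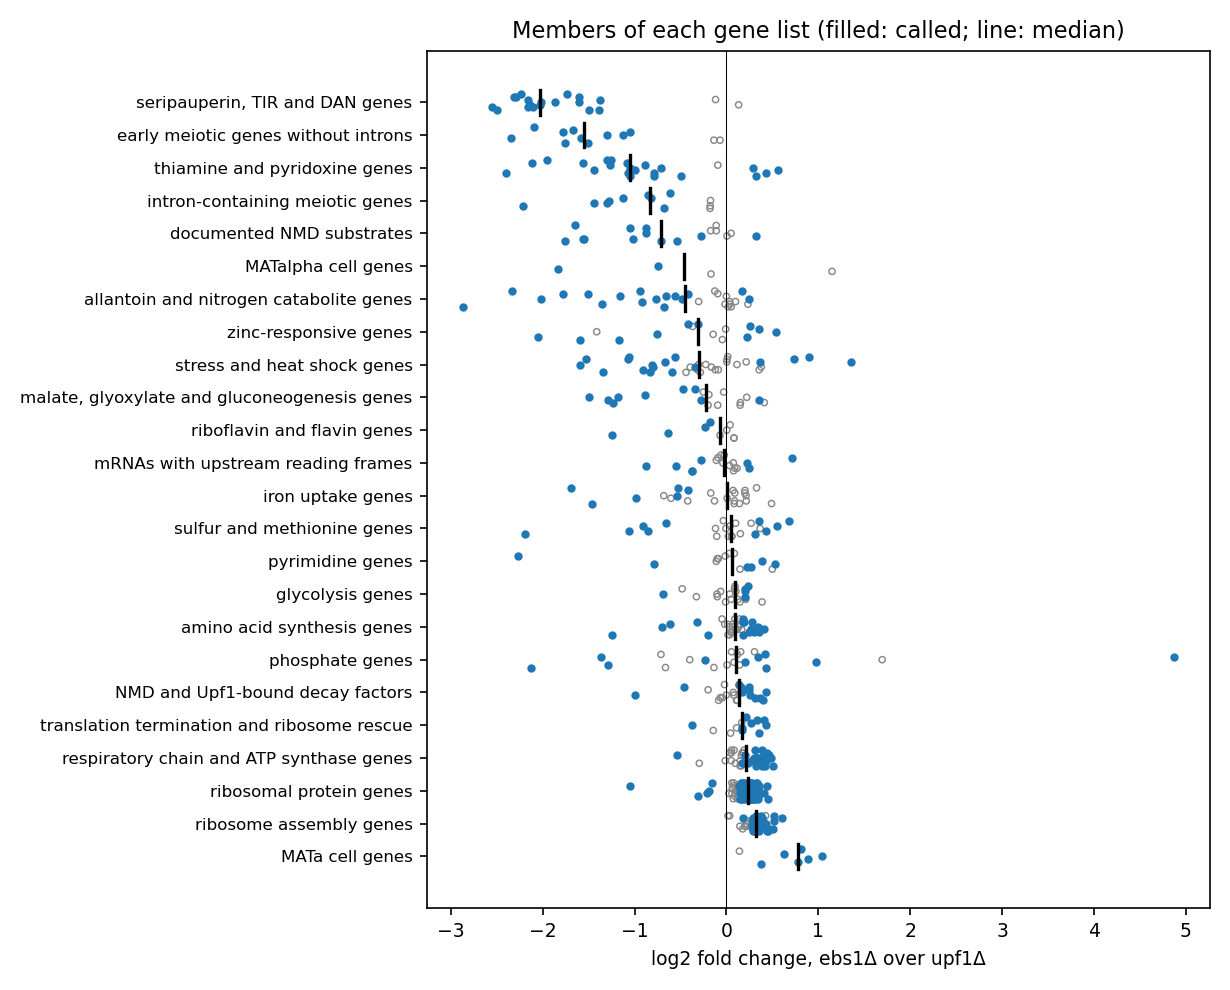
Log2 fold change of ebs1Δ over upf1Δ (horizontal axis) of each tested member of 24 gene lists, NAM7 and EBS1 left out, with called members filled, the others open, and the median as a line. The seripauperin list at the top has its median at -2.03 and the MATa list at the bottom at 0.78, and ribosomal protein, ribosome assembly and respiratory genes form narrow groups just above 0.

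Cell wall genes of the seripauperin, TIR and DAN families were the list with the lowest median, -2.03, with 18 of 20 tested (90%) lower, each by 2-fold or more, and 0 higher. TIR4 (YOR009W, chromosome XV, 344335 to 345798), which has no near-identical copy, had 14.2, 13.2 and 15.2 CPM in ebs1Δ, 66.0, 69.5 and 74.9 CPM in upf1Δ, and 9.33 and 9.12 CPM in wild type (-2.31 ± 0.0782). TIR1 (0.13) and TIR3 (-0.12) were not called. The PAU members share reads with their copies and most had under 10 CPM. Among all genes within 25 kb of a chromosome end, 195 of 270 (72.2%) were lower in ebs1Δ, against 1622 of 5508 (29.4%) farther away, and without near-identical copies 135 of 203 (66.5%). In the lowest of the 4 level classes the shares were 85.4% of 137 near an end and 46.5% of 1001 farther away. COS12 (YGL263W, chromosome VII, 2790 to 3932), of a family at chromosome ends, had 27.7, 35.4 and 25.1 CPM in ebs1Δ, 84.4, 65.8 and 79.9 CPM in upf1Δ, and 4.20 and 5.58 CPM in wild type, and thus was well above wild type in both deletions. It was chosen after its values were seen. Identifiers that RefSeq does not list, many of them questionable reading frames, were lower in 193 of 411 cases (47%) and higher in 14, at a median of 1.11 CPM.

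Nutrient uptake genes differed between libraries of the same strain. The zinc genes ZRT1, the high-affinity transporter gene, with 2337, 410 and 178 CPM in ebs1Δ, 2074, 164 and 1536 CPM in upf1Δ, and 184 and 253 CPM in wild type, and ZPS1, with 618, 40.9 and 33.6 CPM in ebs1Δ, 963, 36.6 and 844 CPM in upf1Δ, and 19.97 and 20.6 CPM in wild type, were high in 1 ebs1Δ and 2 upf1Δ libraries and were not called. VEL1 (-2.05 ± 0.386), ADH4 (-1.17 ± 0.193) and FET4 (-0.75 ± 0.149), 3 of the 6 called lower among 15 zinc genes (40%), had their lowest upf1Δ value in the same library in which ZRT1 was low. GTO3 above, and GLC3, with 53.7, 30.4 and 52.8 CPM in upf1Δ, were also lowest there. Another 4 of the 15 zinc genes (26.7%) were called higher, and 2 were without the second upf1Δ library or with total count scaling. The part of zinc supply in these values was not tested. Of 23 iron genes 6 (26.1%) were lower, a smaller share than the 32.4% over all genes tested, and 0 higher, with a median of 0.01. The lower members included the ferric reductase genes FRE2 (-1.69) and FRE3, with 77.2, 71.8 and 69.6 CPM in ebs1Δ, 220, 160 and 221 CPM in upf1Δ, and 40.4 and 44.0 CPM in wild type (-1.46 ± 0.178). By DESeq2 1 iron gene was called higher, and without the first upf1Δ library 3 were.

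Phosphate genes held the largest rise apart from the deleted UPF1. PHO84 (YML123C, chromosome XIII, 24037 to 25800), which encodes a phosphate importer of the plasma membrane, had 57.3, 174 and 185 CPM in ebs1Δ, 1.79, 9.38 and 3.00 CPM in upf1Δ, and 212 and 353 CPM in wild type. The groups did not overlap, though values within each varied several-fold (4.87 ± 1.10, adjusted p = 0.00749), and an annotated RNA on the other strand overlaps the gene, and whether the counting used strand is not stated. SPL2, a regulator of phosphate uptake, was in the same order without a call (1.70 ± 0.672, edgeR adjusted p = 0.0596). GIT1, of glycerophosphoinositol uptake (YCR098C, chromosome III, 297049 to 298605), went the other way with 14.2, 15.96 and 12.5 CPM in ebs1Δ, 64.7, 60.2 and 62.8 CPM in upf1Δ, and 6.398 and 8.14 CPM in wild type (-2.13 ± 0.0927). The acid phosphatase genes PHO11 (-1.36 ± 0.166), which has a near-identical copy in PHO12, and PHO5 (-1.29 ± 0.326) were lower too. Of 22 phosphate genes 4 (18.2%) were lower and 6 (27.3%) higher.

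The remaining genes at least 2-fold higher in ebs1Δ were few, and none of them was called higher than wild type in ebs1Δ. CWP1, a cell wall mannoprotein gene (YKL096W, chromosome XI, 261132 to 261851), had 266, 238 and 228 CPM in ebs1Δ, 88.5, 80.5 and 72.0 CPM in upf1Δ, and 442 and 281 CPM in wild type (1.603 ± 0.200). YRO2, a membrane protein gene (YBR054W, chromosome II, 343101 to 344135), had 69.9, 81.1 and 84.5 CPM in ebs1Δ, 39.1, 26.1 and 26.7 CPM in upf1Δ, and 129 and 153 CPM in wild type (1.36 ± 0.214). RPI1, a regulator gene linked to the Ras pathway (YIL119C, chromosome IX, 136654 to 137877), had 24.2, 25.5 and 23.4 CPM in ebs1Δ, 11.3, 8.14 and 11.2 CPM in upf1Δ, and 35.4 and 40.8 CPM in wild type (1.25 ± 0.110). NCA3 (1.21 ± 0.239) had 16.1, 30.1 and 14.8 CPM in ebs1Δ and 8.26, 8.41 and 9.84 CPM in upf1Δ. Besides NAM7, PHO84, these 4 and MFA1, the 11 genes were 4 identifiers with under 2 CPM that RefSeq does not list.

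Only 5 genes were called higher in ebs1Δ than in both upf1Δ and wild type, namely AHK1, GIP3, SSU1, SRL4 and YKL068W-A. AHK1, a scaffold gene of osmotic signalling, had 110, 125 and 116 CPM in ebs1Δ, 98.4, 98.9 and 101 CPM in upf1Δ, and 88.3 and 95.3 CPM in wild type (0.24 ± 0.0601), and GIP3, a phosphatase regulator gene, was at 0.22 ± 0.0640. YKL068W-A had 29.2, 35.9 and 29.9 CPM in ebs1Δ, 20.3, 24.4 and 20.1 CPM in upf1Δ, and 23.8 and 23.9 CPM in wild type (0.55 ± 0.0956). The number of such genes ran from 1 to 14 when single libraries were left out and was 11 with DESeq2. AHK1 and GIP3 lost their calls with total count scaling (edgeR adjusted p = 0.0657 and 0.0944). For 1322 of the 1519 higher genes, upf1Δ was called lower than wild type, with median changes against wild type of -0.07 in ebs1Δ and -0.35 in upf1Δ, and 192 met neither rule. Among those 192, PFK27, PDE2, SKS1 and MIG2 were high in 1 ebs1Δ library. MIG2, a glucose repressor gene, had 37.8, 77.5 and 43.6 CPM in ebs1Δ and 27.1, 36.2 and 30.9 CPM in upf1Δ (0.76 ± 0.252), and without the second ebs1Δ library it was at 0.37, SKS1 at 0.42, PDE2 at 0.37 and PFK27 at 0.26. PDE2 and MIG2 lost their calls without the first or the third upf1Δ library, and PFK27 without any 1 of the upf1Δ or wild type libraries.

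Genes of the ribosome were slightly higher in ebs1Δ, at a level close to wild type. Of 137 ribosomal protein genes 111 (81%) were higher and 5 (3.65%) lower, with a median of 0.23. With total count scaling 78 were higher, and without the second ebs1Δ library 2 were lower. RPS28B had 673, 672 and 743 CPM in ebs1Δ, 506, 512 and 511 CPM in upf1Δ, and 690 and 716 CPM in wild type (0.45 ± 0.0680), and the groups did not overlap. RPL22B, whose unspliced RNA is a known NMD target (YFL034C-A, chromosome VI, 64243 to 64932), went against the rest, with 167, 184 and 193 CPM in ebs1Δ, 345, 413 and 372 CPM in upf1Δ, and 140 and 147 CPM in wild type (-1.05 ± 0.0757). RPL28, whose unspliced RNA is likewise an NMD target, was at -0.31 ± 0.0539, with ebs1Δ near wild type. Of 50 ribosome assembly genes 33 (66%) were higher and 0 lower, with a median of 0.32, among them UTP22 (0.44 ± 0.0755), NOP56 (0.39 ± 0.0830) and NOP12 (0.45 ± 0.102). No assembly gene was lower by DESeq2 or at an unadjusted p under 0.05. The count of 33 depended on single libraries, being 12 without the second ebs1Δ library, 18 without the third, 12 without the first or the third upf1Δ library and 13 with total count scaling. The 3 ebs1Δ libraries lay above all 3 upf1Δ libraries for 8 of the 50, a smaller share than the 24% (1485 of 6198) over all genes tested.

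Of 38 respiratory chain and ATP synthase genes 22 (57.9%) were higher in ebs1Δ and 1 (2.63%), NDE2 (-0.54), was lower, with a median of 0.22. NDE2 lost its call without the first or the third ebs1Δ library or without any 1 upf1Δ library, and also with DESeq2 size factors, limma voom, no filter or all 17 libraries. COX4 had 75.7, 73.9 and 82.5 CPM in ebs1Δ, 54.1, 59.6 and 50.1 CPM in upf1Δ, and 95.01 and 92.7 CPM in wild type (0.50 ± 0.0778), so that ebs1Δ was between the 2 other strains, and ATP2 was at 0.45 ± 0.0688. Of 20 glycolysis genes 4 (20%) were higher and 1 (5%), PDC5, lower (-0.69 ± 0.0888). The count of higher genes was 1 without the first or the second ebs1Δ library, without the third upf1Δ library or with total count scaling, 2 without the second upf1Δ library and 6 without the third ebs1Δ library.

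Of 25 decay factors besides NAM7 and EBS1, 2 (8%) were lower and 11 (44%) higher, all of the higher ones by less than 2-fold. Without the first ebs1Δ library 4 were lower. NMD4, an NMD factor gene (YLR363C, chromosome XII, 852495 to 853151), had 53.5, 53.0 and 52.3 CPM in ebs1Δ, 105, 109 and 102 CPM in upf1Δ, and 31.0 and 34.4 CPM in wild type (-0.997 ± 0.0693), so that it was raised in both deletions and less in ebs1Δ. EDC2, a decapping activator gene, was the other lower one (-0.47 ± 0.104). NMD2 (-0.04 ± 0.0683) and UPF3 (0.00 ± 0.0619), the partners of Upf1, were not called. PAT1, HRR25, SKI8, DCP1 and DCP2 were higher by 0.26 to 0.43. Of 13 termination and rescue genes 8 (61.5%) were higher, with the release factor gene SUP35 at 391, 432 and 415 CPM in ebs1Δ, 314, 333 and 271 CPM in upf1Δ, and 461 and 472 CPM in wild type (0.43 ± 0.0744), and MTQ2, a methyltransferase gene for a release factor, was lower (-0.37 ± 0.0603). With total count scaling 7 decay genes, NAM7 included, and 5 termination genes were higher.

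Of 7 MATa genes 6 (85.7%) were higher in ebs1Δ, all with non-overlapping groups, and 6 in each fit that left out 1 library. The pheromone gene MFA1 (YDR461W, chromosome IV, 1385176 to 1385286) had 173, 196 and 185 CPM in ebs1Δ, 73.3, 110 and 87.0 CPM in upf1Δ, and 228 and 253 CPM in wild type (1.04 ± 0.142). The protease gene BAR1 (0.88 ± 0.103), the pheromone exporter gene STE6 (0.81 ± 0.0903), the second pheromone gene MFA2 (0.63 ± 0.0626) and FAR1 (0.83 ± 0.0975), a cell cycle arrest gene outside the list, showed the same order, and STE2 (0.14), the receptor gene, was not called. Of 4 MATalpha genes 2 (50%) were lower and 0 higher. The agglutinin gene SAG1 had 44.97, 43.6 and 49.3 CPM in ebs1Δ, 163, 163 and 166 CPM in upf1Δ, and 33.1 and 34.2 CPM in wild type (-1.84 ± 0.0612), and STE3, the receptor gene, was at -0.75 ± 0.0938. The MATalpha pheromone genes MF(ALPHA)1 and MF(ALPHA)2 averaged at most 1.13 CPM in any strain and were not called. MF(ALPHA)2 lay in the opposite direction to SAG1, at 1.15 ± 0.531 with all 3 ebs1Δ libraries above all 3 upf1Δ libraries (edgeR adjusted p = 0.0793), and 1 MATalpha gene was called higher without the second upf1Δ library. In bulk RNA, a change in the number of cells of a type and a change of RNA per cell cannot be told apart.

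A group of genes was low in both deletions, which share the KlURA3 marker, and was chosen after its values were seen. URA1, the dihydroorotate dehydrogenase gene (YKL216W, chromosome XI, 25215 to 26159), had 174, 215 and 204 CPM in ebs1Δ, 193, 255 and 183 CPM in upf1Δ, and 1271 and 1279 CPM in wild type, with overlapping deletions (-0.09 ± 0.111, edgeR adjusted p = 0.521). URA4, the dihydroorotase gene, had 109, 114 and 112 CPM in ebs1Δ, 96.6, 112 and 93.8 CPM in upf1Δ, and 354 CPM in both wild type libraries (0.15 ± 0.0684, edgeR adjusted p = 0.0789). RIB4, of riboflavin synthesis, had 133, 117 and 119 CPM in ebs1Δ, 135, 142 and 139 CPM in upf1Δ, and 607 and 535 CPM in wild type (-0.17 ± 0.0682). MDH2, the cytosolic malate dehydrogenase gene, averaged 56.4 ± 4.396 CPM in ebs1Δ and 78.6 ± 12.05 CPM in upf1Δ (SD, n = 3 each), against 339 and 316 CPM in wild type (-0.48 ± 0.111). In these 4 genes the 2 deletions differed by far less than either differed from wild type, and the part of the marker and of the deletions in that distance cannot be told apart here.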

How the data were processed

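Poly(A) RNA libraries were made with a directional kit after hot-phenol extraction and DNase treatment, per the labels' protocols. The authors deposited a table of raw read counts, with genes in rows and libraries in columns. The submitters' processing notes name STAR 2.7.11a, featureCounts (Subread 2.0.5) and the build sacCer3. Which annotation and strand setting were used, and how reads matching several places were treated, is not stated there. All 17 columns were assigned to samples by name. Of 6692 identifiers 6008 are in RefSeq, and 112 had 0 reads in every library.

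The counts went through edgeR 4.0.16 in R 4.3.3: filterByExpr by genotype (6198 genes), TMM scaling, and a robust quasi-likelihood fit of the 11 batch 1 libraries. The 3 nmd4Δ libraries among them entered the filter, the scaling and the estimate of the spread, and no comparison. The fit had 4 coefficients, 7 residual degrees of freedom and a common dispersion of 0.006536. Tests were two-sided with Benjamini-Hochberg adjustment over all genes tested. The SE was obtained by dividing the absolute log2 fold change by the root of its F statistic. CPM values use TMM-scaled library sizes. Batch 2 holds only wild type and nmd4Δ libraries. An earlier look at these data found them to match batch 1 libraries of the same genotype, so they would not be independent. They entered 1 alternative only. No 2 of the libraries compared agreed within sampling noise. The pipeline was tested on simulated counts.

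Genes were named by a rule, from called genes that have a standard name, average 10 CPM or more and do not overlap between groups: the 12 largest changes each way and the 5 largest in each pattern, then for each list the 3 with the smallest p, and strain checks. Further list members are given for context, and other genes were chosen after their values were seen. A gene that the rule names is not reported here. The comparison, the gene lists and the rules were chosen with earlier results of these data known. A near-identical copy is a genomic match of at least 90% identity over at least 50% of the gene (BLAST). Sequences were read from the R64 genome of RefSeq. Alternatives were DESeq2 1.42.0, its size factors, upper-quartile and total count scaling, limma voom (limma 3.58.1), other filters, the 6 libraries alone, all 17 libraries, no robust step, replicate numbers as a block, other cutoffs, and leaving out each library.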

Additional observations from a re-analysis of the deposited data

How the results depend on the processing

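The next counts cover only the 105 genes picked by the naming rule, strain checks included. All 105 kept their direction and side of the threshold with DESeq2, its size factors, upper-quartile scaling, no filter, no robust step and all 17 libraries. Among the 105, PFK27 alone lost its call with limma voom (adjusted p = 0.059), and PGI1 and PFK27 lost it at a mean of at least 10 CPM. With total count scaling, the 6 libraries alone or 1 library left out, calls were lost for 8 of the 105 at most, RIB2, PFK27, PDE2, MIG2, PGI1, GIP3, AHK1 and PHD1. Genes named outside the rule are not in these counts. Of those, HAP4, FOL1, TIF4631, URE2, GZF3, ADR1 and NDE2 lost calls in settings given above. LEU2, carried on the plasmid and not called, turned negative without ebs1Δ replicate 1 (-0.086) and without upf1Δ replicate 2 (-0.074), each with adjusted p = 0.787, and reached 0.38 without upf1Δ replicate 1. The count of genes higher in ebs1Δ than in both other strains, 5, was 10 with DESeq2 size factors, 8 with total count, 9 with upper quartiles, 11 with DESeq2, 3 with no filter, 25 with 17 libraries and 1 to 14 with 1 library left out. Total count scaling gave 806 genes higher in ebs1Δ than upf1Δ, of which 520 were lowered in upf1Δ, with 63 lower in ebs1Δ and 733 lower in upf1Δ than wild type. Upper quartiles gave 98 lower in ebs1Δ than wild type. All 17 libraries gave 863 higher and 455 lower in ebs1Δ than wild type, with batch 2 libraries that would not be independent of batch 1. At a mean of at least 10 CPM, 342 genes were 2-fold lower and 6 higher in ebs1Δ than upf1Δ. With 1.5-fold in place of 2-fold, 1189 were lower and 59 higher. Near wild type within 0.3 held 489 genes and within 1 held 1519, which left 88 raised in both. With single libraries left out, genes lower in ebs1Δ than upf1Δ ran from 1824 to 1987 and higher from 1058 to 1511, with 668 to 720 and 9 to 14 at 2-fold. Against wild type ebs1Δ had 230 to 527 higher (356 without ebs1Δ replicate 3, 230 and 334 without wild type replicates 1 and 2) and 36 to 230 lower (87 and 83 without ebs1Δ replicates 2 and 3, 36 and 79 without wild type replicates 1 and 2), and upf1Δ 1818 to 2140 and 1453 to 1966. Near wild type ran from 670 to 916, raised in both from 223 (without wild type replicate 1) to 380, and lowered in upf1Δ from 920 to 1363. Shares of upstream ATGs kept their order between lower and higher genes when 30, 40 or 60 bases were searched, a choice made after seeing the data (14.7% of 2-fold lower and 3.73% of higher genes at 30 bases). The main fit did not pair libraries by replicate number. Same-numbered ebs1Δ and upf1Δ libraries had residual correlations of 0.413, 0.492 and -0.0582, and ebs1Δ 1 correlated best with upf1Δ 3 (0.416). These values do not settle whether same-numbered libraries belong together. A fit with replicate numbers as a block gave 2069 lower and 1613 higher, and PFK27 and NDE2 lost their calls, while 7 glycolysis genes were higher. The cause of these differences was not tested.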
